A study of Mus musculus with 20 samples.

Results

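Fezf2, Neurog2, Tbx18, Sox3, Cplx3, Lman1l and Abcc12 are 7 of the 49585 genes counted by RNA-seq in newborn and late fetal mouse ovaries. They were picked because they were near absent in control ovaries at birth and present in ovaries lacking Figla, so their values in that comparison are the reason for the choice and are given without a test. The description held for 6 of the 7: Sox3 was already counted 59 to 112 times in each control library at birth.

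FIGLA is a basic helix-loop-helix transcription factor made by oocytes. It is known for switching on the zona pellucida genes and for the formation of primordial follicles around birth, and it binds E-box DNA with a partner of the same family. LHX8 is a LIM homeodomain factor of oocytes that is also needed at this stage. Of the genes described here, 4 encode transcription factors best known from the nervous system, heart, ureter or male germ line, 2 encode proteins of vesicle fusion and of cargo transport in the secretory pathway, and 1 encodes a membrane transporter.

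Ovaries came from B6D2F1 mice at embryonic day 18.5 (E18.5) or on the day of birth (P0). In the Figla set, 4 control and 4 knockout (Figla-/-) libraries were from E18.5 ovaries, and 3 control and 3 knockout libraries were from P0 ovaries. The Lhx8 set, all from P0, had 3 control and 3 knockout (Lhx8-/-) libraries. The genotype field gives Figla+/- and Lhx8+/- as the control genotypes, but in the Lhx8 set the library names say WT for the same group, so the word control is used without a genotype. The labels do not give the deleted alleles or how many animals gave each sample, and whole ovaries hold oocytes together with every other ovarian cell, so fewer cells of a type and less RNA per cell cannot be told apart.

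Titles and library names named opposite genotypes in 6 of the 14 libraries of the Figla set and in 6 of 6 of the Lhx8 set, and grouping here followed the library name. Figla was counted 386, 388 and 530 times in the P0 libraries named as controls and 2, 8 and 3 times in those named as knockouts. At E18.5 it was counted 214, 169, 22 and 213 times in controls and 7 to 11 times in knockouts, so control replicate 3 lay above the knockouts but close to them, and its 36 counts of Lhx8 were fewer than the 42 to 315 of the knockouts. Lhx8 was counted 804 to 973 times in the Lhx8 libraries named as controls and 174 to 298 times in those named as knockouts, but the deleted part of the gene is not given in the labels, and these libraries read transcript ends. In the same libraries the zona pellucida genes Zp1 and Zp3 had 222 and 1233 counts over those named as controls and 0 and 6 over those named as knockouts, while over the P0 Figla libraries, grouped by name, controls had 591 and 992 counts of them against 0 of either gene for the knockouts. The directions given for the Lhx8 set follow the names, and with the titles in their place each sign would turn. E18.5 control replicates 1 and 2, and E18.5 knockout replicates 1 and 2, were near-identical pairs (chi-square per degree of freedom 1.12 and 1.32, against 6.62 to 62.3 for the other 22 pairs), so each pair was summed and counted as 1 sample, written 1-2, which left 3 samples per group. Total counts ran from 5583392 to 13408022 per Figla library and from 8297204 to 9978350 per Lhx8 library.

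The genes lie at 6 places on 5 chromosomes (GRCm38, spans as in the count tables). Fezf2 (ENSMUSG00000021743) lies on chromosome 14, 12341892 to 12345865, minus strand. Neurog2 (ENSMUSG00000027967) lies on chromosome 3, 127633135 to 127635631, plus strand. Tbx18 (ENSMUSG00000032419) lies on chromosome 9, 87702800 to 87731260, minus strand. Part of its span overlaps D030062O11Rik (87729285 to 87732090) on the other strand. Reads in the shared part cannot be separated because strand was ignored in counting. D030062O11Rik had 1 and 8 counts of its own in P0 Figla controls and knockouts, beside 15 and 385 for Tbx18. Sox3 (ENSMUSG00000045179), a gene with a single exon, lies on chromosome X, 60891366 to 60893430, minus strand. Cplx3 (ENSMUSG00000039714; 57599992 to 57606281) and Lman1l (ENSMUSG00000056271; 57607085 to 57620774) are neighbours on the minus strand of chromosome 9, with 803 bases between them. Abcc12 (ENSMUSG00000036872) lies on chromosome 8, 86482260 to 86580686, minus strand.

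Because FIGLA binds E-boxes and LHX8 is a homeodomain factor, the 250 bases before each gene's RefSeq start (GRCm38.p6) were searched on both strands for the E-box CANNTG and for the homeodomain core TAATTA. RefSeq promoters were found for 6 of the 7 genes; that of Sox3 was not analysed here. E-boxes numbered 3 before Cplx3, 2 before Lman1l, 1 before Tbx18 and 1 before Abcc12, with 0 before Fezf2 and 0 before Neurog2. The window of Abcc12 (chr8:86566591-86566840) lies inside the span counted for that gene, not before its outer end. TAATTA was in 0 of the 6. Of 32851 mouse promoters of the same length, 66.2% held CANNTG, with a median of 1 per promoter, and 4.84% held TAATTA, so the E-box letters were about as frequent before these genes as elsewhere. The promoters of the neighbours Cplx3 (chr9:57606282-57606531) and Lman1l (chr9:57620775-57621024) and of the genes with the highest knockout levels among the other matched factors, Tbx18 (chr9:87731261-87731510) and Fezf2 (chr14:12345866-12346115), are shown 5′ to 3′ along the minus strand, from RefSeq, with E-boxes in capitals.
Cplx3: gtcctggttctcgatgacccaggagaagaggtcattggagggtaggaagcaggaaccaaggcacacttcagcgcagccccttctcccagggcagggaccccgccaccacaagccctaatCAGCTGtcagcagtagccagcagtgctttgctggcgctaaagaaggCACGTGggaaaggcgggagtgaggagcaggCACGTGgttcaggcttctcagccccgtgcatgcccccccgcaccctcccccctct
Lman1l: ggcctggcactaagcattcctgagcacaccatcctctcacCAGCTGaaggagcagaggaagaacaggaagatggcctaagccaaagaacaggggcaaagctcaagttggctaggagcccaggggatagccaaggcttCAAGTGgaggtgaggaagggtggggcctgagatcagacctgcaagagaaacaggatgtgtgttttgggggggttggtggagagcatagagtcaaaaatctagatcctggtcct
Tbx18: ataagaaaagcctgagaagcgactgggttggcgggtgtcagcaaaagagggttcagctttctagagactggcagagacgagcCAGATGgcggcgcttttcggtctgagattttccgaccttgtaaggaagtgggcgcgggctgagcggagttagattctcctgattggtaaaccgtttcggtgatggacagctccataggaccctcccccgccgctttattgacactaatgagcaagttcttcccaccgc
Fezf2: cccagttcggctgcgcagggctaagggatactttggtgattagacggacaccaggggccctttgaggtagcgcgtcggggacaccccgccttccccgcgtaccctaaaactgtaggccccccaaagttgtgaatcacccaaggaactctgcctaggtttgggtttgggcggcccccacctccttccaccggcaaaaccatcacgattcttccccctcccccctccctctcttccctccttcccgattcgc
The E-boxes before Cplx3 were CAGCTG, 131 bases before the start, and CACGTG, 85 and 55 bases before it. Lman1l had CAGCTG and CAAGTG, 210 and 113 bases before the start, and Tbx18 had CAGATG, 168 bases before it. A match describes letters only, and binding was not measured here.

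At P0 in the Figla set, all 7 genes were higher in each of 3 knockout ovaries than in any of 3 controls, which is how they were picked. Of 17321 genes tested, 15.3% had groups set apart in this direction and 5.12% were called higher and 10.9% lower at an adjusted p under 0.05 (edgeR quasi-likelihood test, Benjamini-Hochberg), and nothing is read from the comparison with these shares. Among those 17321 genes the fold changes of Fezf2, Cplx3, Tbx18, Neurog2, Abcc12 and Lman1l ranked 1, 2, 4, 8, 9 and 10, and that of Sox3 ranked 43. These ranks describe the choice of the genes and are no support for it. All 7 passed the filter on low counts, 6 of them through the knockout group alone. Levels are given as CPM, counts scaled to a common library size with TMM factors, as mean ± SD over 3 samples.

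Fezf2, a zinc-finger repressor that specifies corticospinal neurons in the forebrain, was counted 0, 0 and 3 times in P0 controls and 66, 86 and 73 times in P0 knockouts. Its level was 0.0763 ± 0.132 CPM in controls and 6.60 ± 0.631 CPM in knockouts, a ratio of 78.7 with a 95% counting interval of 26.6 to 385. The transcript was close to the limit of counting in controls and even across the knockouts. Neurog2, a proneural basic helix-loop-helix factor that starts neuronal differentiation, was counted 3, 1 and 2 times in controls and 17, 47 and 32 times in knockouts. Its level was 0.165 ± 0.0794 CPM in controls and 2.78 ± 1.12 CPM in knockouts, 16.8 times as much (interval 7.44 to 46.9). Of the 7 genes it varied most between knockouts relative to its mean, with replicate 1 lowest.

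Tbx18, a T-box repressor needed in ureter mesenchyme and the sinoatrial node, was counted 7, 3 and 5 times in P0 controls and 102, 142 and 141 times in knockouts. Its level was 0.415 ± 0.155 CPM in controls and 11.4 ± 2.35 CPM in knockouts, 26.9 times as much (interval 16.1 to 48.6). Sox3, an X-linked SoxB1 factor of neural progenitors and spermatogonial progenitors, was counted 74, 59 and 112 times in controls and 294, 335 and 299 times in knockouts. Its level was 6.74 ± 1.61 CPM in controls and 27.3 ± 1.75 CPM in knockouts, 3.98 times as much (interval 3.45 to 4.60). Sox3 thus had the smallest ratio of the 7 and the tightest interval, since it alone was well counted in both groups.

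Cplx3, a complexin that clamps and primes vesicle fusion at retinal ribbon synapses, was counted 2, 0 and 0 times in P0 controls and 47, 35 and 40 times in knockouts. Its level was 0.0556 ± 0.0964 CPM in controls and 3.62 ± 0.780 CPM in knockouts, a ratio of 64.0 whose counting interval ran from 17.4 to 535. Lman1l, a relative of the cargo lectin that carries glycoproteins from the endoplasmic reticulum to the Golgi, was counted 4, 1 and 2 times in controls and 23, 38 and 33 times in knockouts, a ratio of 14.1 (interval 6.58 to 36.0). Abcc12, an ABC transporter of the multidrug resistance protein family, was counted 3, 2 and 0 times in controls and 19, 27 and 25 times in knockouts, a ratio of 14.9 (interval 6.10 to 47.3). All 3 stood in single digits in each control library, and no knockout library fell to the control range.

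**Figure D1:**
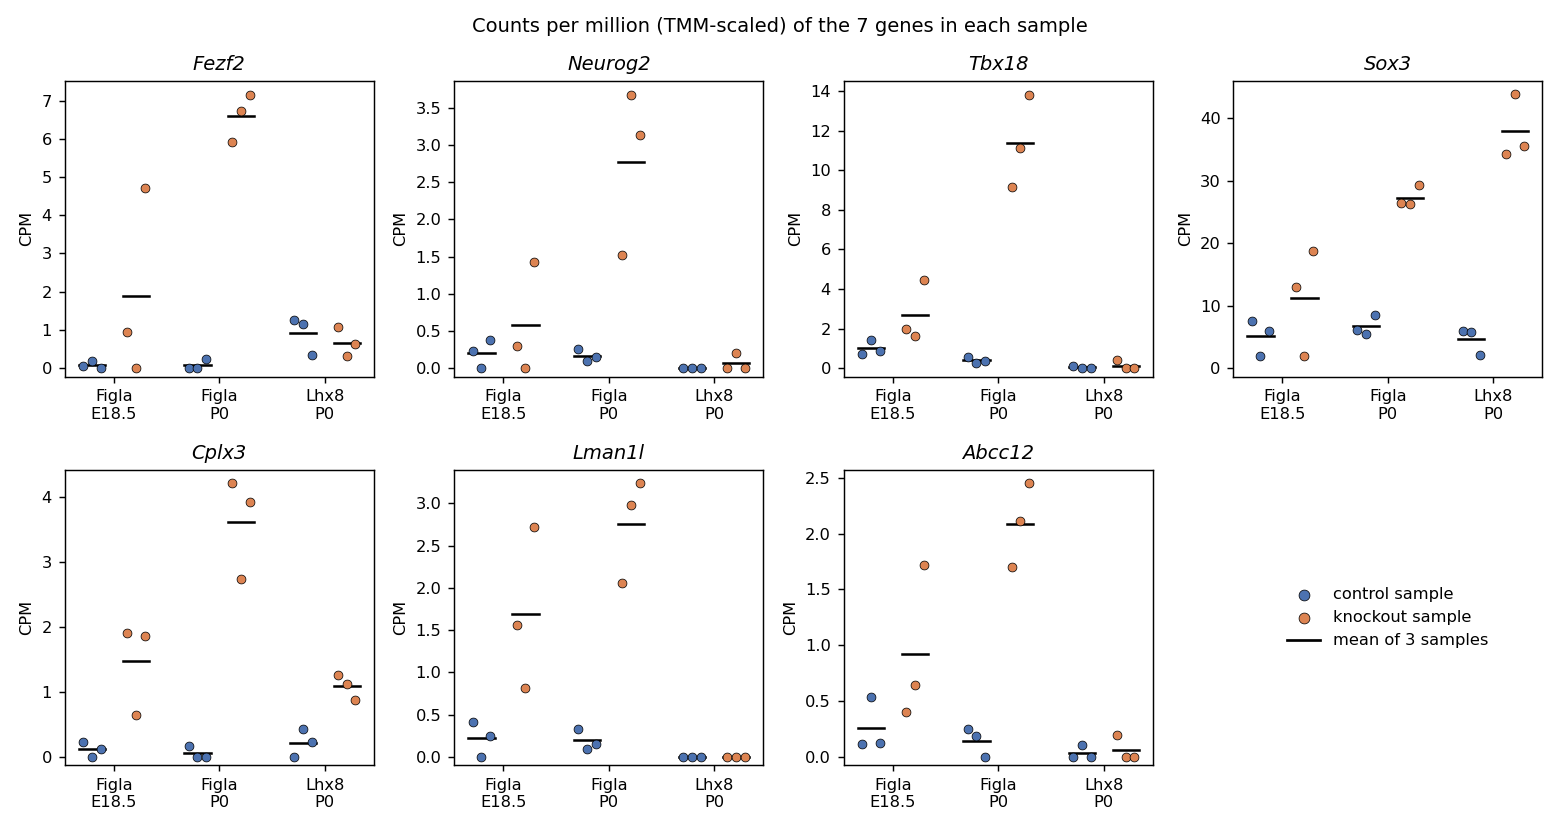
CPM (vertical axes, TMM-scaled, each panel with its own range) of the 7 genes in each control (blue) and knockout (orange) sample of the Figla E18.5, Figla P0 and Lhx8 P0 sets, with a black line at the mean of 3 samples. At P0 the Figla knockouts lie above the controls in every panel, at E18.5 the spread of the knockouts is wide, and in the Lhx8 set Sox3 and Cplx3 alone are set apart.

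Per kb of exon, which allows levels to be compared between genes, Sox3 was the most abundant of the 7 in P0 Figla knockouts at 13.2 ± 0.846 CPM per kb. Fezf2 followed at 2.87 ± 0.274 and Tbx18 at 2.41 ± 0.498 CPM per kb, which differed by less than the SD of Tbx18. Lman1l stood at 1.64 ± 0.366, Neurog2 at 1.25 ± 0.504 and Cplx3 at 1.23 ± 0.264 CPM per kb, and each of these neighbours in the order lay within the spread of the next. Abcc12 was lowest, at 0.314 ± 0.0563 CPM per kb. In P0 controls Sox3 stood at 3.26 ± 0.778 CPM per kb and the other 6 at 0.0188 to 0.115, so Sox3 in controls was at about the level that Fezf2 and Tbx18 had in knockouts.

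**Figure D2:**
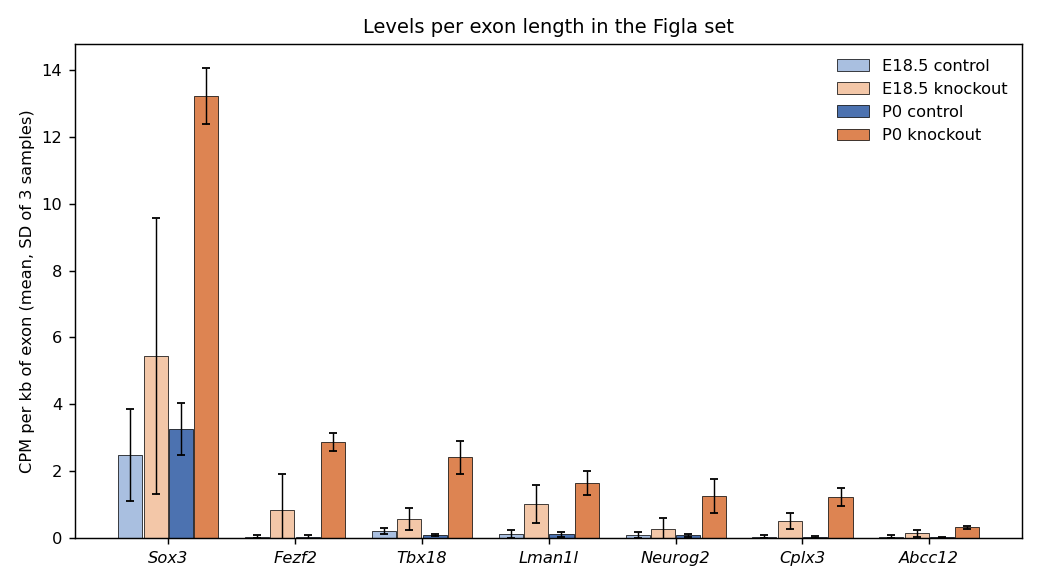
Level in CPM per kb of exon (bars, mean; whiskers, SD of 3 samples) of the 7 genes in the 4 groups of the Figla set, ordered by the P0 knockout level. Sox3 stands at 13.2 in P0 knockouts and the other 6 at 0.314 to 2.87.

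At E18.5, shortly before birth, the lowest knockout sample lay above the highest control sample for Tbx18, Cplx3 and Lman1l, 3 of the 7 genes. Of these only Tbx18 passed the filter on low counts, and it did so through its knockout samples. Thus 1 of the 2 that passed it had this pattern, beside 3.4% of the 16131 genes tested. Since the filter favoured a high knockout level, nothing is read from the comparison with this share. None of the 7 was called by the edgeR quasi-likelihood test at an adjusted p under 0.05, which called 0% of all genes higher and 0.0062% (1 gene) lower. An unadjusted p under 0.05 was found for 607 genes (3.76%), and DESeq2 called 16 genes higher (0.0994%) and 62 lower. Tbx18 and Sox3 were the 2 that passed the filter. An exact two-sided permutation test over 20 splits of 3 against 3 samples cannot give a p below 0.1.

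Tbx18 was counted 5, 7, 8 and 7 times in E18.5 controls and 25, 14, 10 and 31 times in E18.5 knockouts. Its level was 0.999 ± 0.381 CPM in controls and 2.67 ± 1.54 CPM in knockouts, a log2 fold change of 1.47 ± 0.52 (SE; edgeR unadjusted p = 0.0234, adjusted p = 1.00; exact permutation p = 0.1). The groups did not overlap, but knockout replicate 3, at 1.62 CPM, lay close to control replicate 3, at 1.43 CPM. Sox3 was counted 69, 61, 11 and 47 times in controls and 113, 146, 12 and 131 times in knockouts. Its level was 5.13 ± 2.86 CPM in controls and 11.2 ± 8.54 CPM in knockouts, a log2 fold change of 1.09 ± 0.73 (SE; edgeR adjusted p = 1.00; exact permutation p = 0.4). Replicate 3 of each genotype was low in Sox3 by itself, at 1.96 and 1.94 CPM, and the remaining knockouts lay above the remaining controls. Without both of these samples the log2 fold change of Sox3 was 1.21 ± 0.31 (SE; edgeR adjusted p = 0.561).

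Cplx3 was counted 2, 2, 0 and 1 times in E18.5 controls and 20, 18, 4 and 13 times in knockouts. The ratio of summed counts was 10.2 with a counting interval of 4.14 to 32.8 (exact permutation p = 0.1), and no knockout sample overlapped the controls. With no filter on low counts Cplx3 was called higher, at a log2 fold change of 3.24 ± 0.77 (SE; edgeR adjusted p = 0.0466), a rule that called 0.18% of 34979 genes higher, and its adjusted p under the other settings that tested it ran from 0.0977 to 1.00. Lman1l was counted 4, 3, 0 and 2 times in controls and 8, 23, 5 and 19 times in knockouts, a ratio of 5.69 (interval 2.79 to 13.1; exact permutation p = 0.1). Its knockout samples also stood above its controls, at 0.809 CPM or more against 0.406 CPM or less.

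Fezf2 was counted 0, 1, 1 and 0 times in E18.5 controls and 7, 12, 0 and 33 times in knockouts, a ratio of 24.2 (interval 6.38 to 205; exact permutation p = 0.4). Knockout replicate 4 gave 33 of the 52 counts and replicate 3 gave 0, so the groups overlapped. Without knockout replicate 4 the ratio was 11.1 (interval 2.68 to 98.3), and without both samples numbered 3 it was 48.0 (interval 8.24 to 1931). Abcc12 was counted 2, 0, 3 and 1 times in controls and 3, 5, 4 and 12 times in knockouts, a ratio of 3.73 (interval 1.48 to 11.1; exact permutation p = 0.2), with control replicate 3 above knockout sample 1-2. Without knockout replicate 4 the ratio of Abcc12 was 2.34 (interval 0.812 to 7.59), and without control replicate 3 it was 6.10 (interval 1.85 to 31.7). Neurog2 was counted 1, 3, 0 and 3 times in controls and 5, 1, 0 and 10 times in knockouts, a ratio of 2.13 (interval 0.829 to 6.12; exact permutation p = 0.7), and without knockout replicate 4 the ratio was 1.00 (interval 0.278 to 3.48). A difference in Neurog2 was therefore not detectable at this depth at E18.5, and the difference between the effects at E18.5 and P0 was not tested for any of the 7, because the P0 effect chose them.

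The E18.5 samples differed in more than genotype. The summed level of 12 oocyte markers was 1089, 338 and 1267 CPM in control samples 1-2, 3 and 4 and 373, 311 and 392 CPM in the knockouts, so control replicate 3 lay in the knockout range, and that of 7 erythroid markers was 811 to 995 CPM in controls and 1091, 2634 and 3071 CPM in knockouts. The part of these differences in the E18.5 values was not tested.

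**Figure D3:**
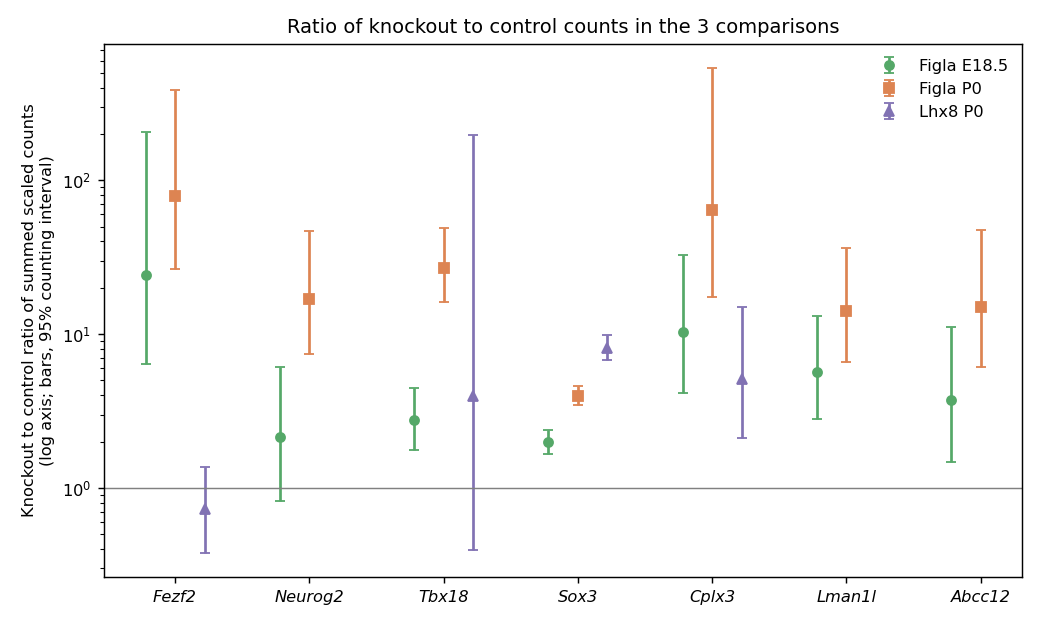
Ratio of knockout to control counts, scaled by library size and summed over samples (vertical log axis; whiskers, 95% counting intervals, which cover counting error only), for the 7 genes in the Figla set at E18.5 and P0 and in the Lhx8 set; no ratio is drawn where counts were 3 or fewer in both groups. For 6 of the 7 genes the P0 Figla interval lies above 6, and for Sox3 it runs from 3.45 to 4.60.

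In ovaries lacking Lhx8, Sox3 rose and Cplx3 stood apart in the same direction, while Fezf2 did not pass the test and the remaining 4 genes were hardly counted. Sox3 was 1 of 2 genes of the 7 that passed the filter, and 3.06% of the 15274 genes tested were called higher and 7.29% lower. Every knockout lay above every control for 15.6% of the genes tested and for 1 of the 2 that passed the filter, Sox3; Cplx3, also set apart, did not pass it. These libraries read transcript ends, so their levels are not set against those of the Figla set.

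Sox3 was counted 57, 55 and 18 times in Lhx8 controls and 351, 429 and 287 times in Lhx8 knockouts. It rose from 4.60 ± 2.23 to 37.9 ± 5.20 CPM (SD, n = 3), a log2 fold change of 3.03 ± 0.33 (SE; edgeR quasi-likelihood adjusted p = 0.000352). All 3 knockouts lay far above the highest control, at 34.2 CPM or more against 5.96 CPM or less. The call held under each of 10 alternatives, at log2 fold changes of 2.68 to 3.26 and adjusted p from 1.65e-24 to 0.00237. In the Figla set at P0 the log2 fold change of Sox3 was 2.01 ± 0.19 (SE), and whether the knockouts differ in their effect on Sox3 was not tested, since no model held both kits.

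Cplx3 was counted 0, 4 and 2 times in Lhx8 controls and 13, 11 and 7 times in knockouts, 0.216 ± 0.212 against 1.09 ± 0.202 CPM. The ratio was 5.13 (interval 2.11 to 15.1; exact permutation p = 0.1), the groups did not overlap, and with no filter the log2 fold change was 2.26 ± 0.95 (SE; edgeR adjusted p = 0.128). Fezf2 was counted 12, 11 and 3 times in controls and 11, 3 and 5 times in knockouts, a log2 fold change of -0.45 ± 0.66 (SE; edgeR adjusted p = 0.696), with overlapping groups. The ratio of Fezf2 was 0.726 with a counting interval of 0.380 to 1.36, and it was counted in every Lhx8 control library.

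Lman1l was counted 0 times in all 6 Lhx8 libraries, which by depth alone allows up to 0.105 CPM in controls and 0.109 CPM in knockouts. These libraries read transcript ends, and a gene well counted in the Figla set can be nearly missed in them. Foxl2 had 4625 and 4551 counts in P0 Figla controls and knockouts, and 2 and 9 in the Lhx8 groups. The limit therefore does not bound the level of Lman1l in the ovary. Neurog2 had 0 counts in controls and 2 in knockouts, Abcc12 had 1 and 2, and Tbx18 had 1 and 4, the 4 all in knockout replicate 1. A change in these 4 genes was not detectable in the Lhx8 set with these libraries.

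Over the 12 samples of the Figla set the log2 CPM of the 7 genes correlated pairwise with Pearson's r from 0.582 (Sox3 and Abcc12) to 0.971 (Cplx3 and Lman1l). These coefficients describe 12 samples in 4 groups, 3 of which are the P0 knockouts that set the choice of genes, so no p is given. Cplx3 and Lman1l were each other's most like gene among the 18379 genes compared. The most like gene was Cxxc4, an inhibitor of Wnt signalling, for Fezf2 (r = 0.975), Galnt14, a glycosyltransferase, for Neurog2 (r = 0.971), Lef1, a transcription factor of the Wnt pathway, for Tbx18 (r = 0.962), Fhad1 for Sox3 (r = 0.954) and Zfp516 for Abcc12 (r = 0.975).

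The 10 other genes whose profile was most like the mean of the 7 were C1ql1, Crip2, Cxxc4, Lef1, 2410004I01Rik, Kif5a, Rab36, Fndc3c1, Gbx1 and Sall1, with r from 0.986 down to 0.962. C1ql1, a secreted synapse organiser, stood at 4.02 CPM in P0 controls and 40.6 CPM in P0 knockouts, and Lef1 at 20.9 and 99.0 CPM. Gbx1, a homeobox gene of the neural tube, stood at 1.92 and 18.4 CPM, and Kif5a, a neuronal kinesin, at 3.81 and 28.1 CPM. Most of these genes were plainly counted in P0 controls, unlike Fezf2 or Cplx3. In the Lhx8 set, which did not enter this measure of likeness, 8 of the 10 were tested. By the edgeR quasi-likelihood test 6 were called higher, beside 3.06% of all genes. Among them were Kif5a at a log2 fold change of 2.05 (edgeR adjusted p = 0.00139), Fndc3c1 at 2.66 (adjusted p = 0.00111) and Lef1 at 0.98 (adjusted p = 0.00989). C1ql1 at 0.93 (edgeR adjusted p = 0.145) and Sall1 at 0.06 (adjusted p = 0.949) did not pass. The P0 Figla knockouts entered the choice of the 10, so nothing is read from the comparison with this share.

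**Figure D4:**
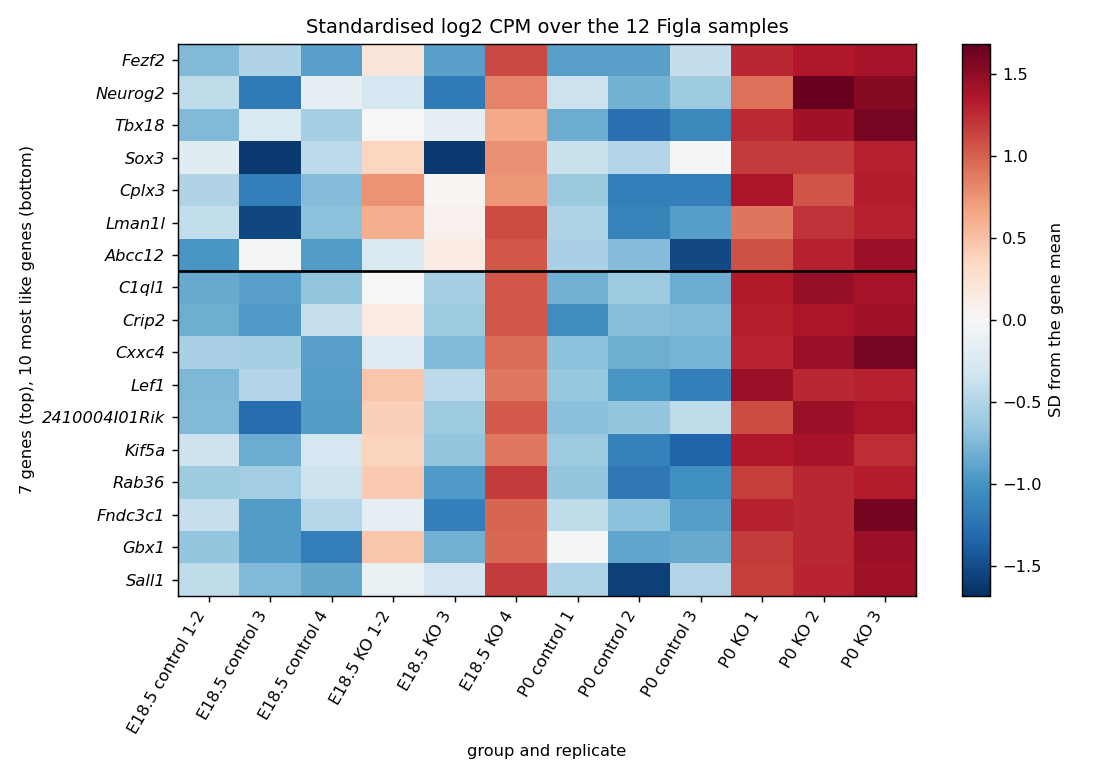
Standardised log2 CPM (colour, SD from each gene's mean over 12 samples) of the 7 genes (above the black line) and the 10 most like genes (below it) in the samples of the Figla set, grouped by age and genotype. The 3 P0 knockout samples are red in every row, and of the E18.5 knockouts sample 4 is the nearest to them and sample 3 is mostly blue.

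Taking the limits of the 7 genes themselves at P0, a mean of at most 6.74 CPM in controls and a log2 fold change of at least 2.01, 32 other genes lay within them. Of these, 30 were called higher in the same comparison that chose them, so this count is a description only. Gm1821 and Mpo were not called and had overlapping groups. Without Sox3 the limits became 0.415 CPM and 3.75, and 3 other genes lay within them: 2410004I01Rik at 4.67, Sox2ot at 4.31 and Gm10655 at 4.17. The remaining 7 of the 10 with the largest log2 fold change were Gm43352 at 4.88, D730045A05Rik at 3.64, Rspo4, an activator of Wnt receptors, at 3.38, Icam5, a neuronal adhesion molecule, at 3.35, C1ql1 at 3.34, Gbx1 at 3.25 and Sox2, the SoxB1 factor of pluripotent and neural stem cells, at 3.07. Sox2 lies within Sox2ot, and reads of overlapping genes could not be separated. Of the 32, 14 were tested at E18.5 and all 14 had a log2 fold change above 0, as had 52.9% of all genes tested. Of the 32, 9 were tested in the Lhx8 set and 4 were called higher, against 3.06% of all genes. Low control levels were a condition for the 32, so some passed the filter only through their knockout samples. Examples are Gm43352 at E18.5 (0.656 CPM in controls, 6.82 in knockouts) and D330045A20Rik in the Lhx8 set (0.110 and 5.03 CPM). Nothing is therefore read from these shares.

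The closest relatives of the transcription factors were looked at as lists. Of 4 other SoxB genes, Sox2 alone passed the filter at P0 in the Figla set, and it rose from 0.357 ± 0.0917 to 3.12 ± 0.473 CPM (SD, n = 3; log2 fold change 3.07, edgeR adjusted p = 0.000387). It was counted 5 times in E18.5 controls and 33 times in E18.5 knockouts, and 1 and 9 times in Lhx8 controls and knockouts. Of 16 T-box genes, 8 were tested at P0 in the Figla set, where Tbx1 (log2 fold change 1.23, edgeR adjusted p = 0.0387), Tbx2 (0.64, adjusted p = 0.00517) and Tbx3 (0.59, adjusted p = 0.0284) rose and Tbx19 fell to 0 counts. Tbx3 also rose in the Lhx8 set, by 0.65 (edgeR adjusted p = 0.0209), and Tbx19 was again at 0 in the knockouts, while Tbx1 and Tbx2 were not called there.

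Of 26 other neural transcription factors, 8 were tested at P0 in the Figla set and 1, the zinc-finger factor Insm1 of neuroendocrine cells, rose (log2 fold change 1.54, edgeR adjusted p = 0.0115), while 0 fell. Neurog1, Neurod1 and Neurod6, relatives of Neurog2 and in part its downstream genes, were at 0 counts in all Figla and all Lhx8 libraries. In Lhx8 ovaries 5 were tested and Emx2 rose, by 0.55 (edgeR adjusted p = 0.0337). The median log2 fold change of those tested was 0.42 at P0 in the Figla set and 0.55 in the Lhx8 set, beside 0.02 and 0.05 for all genes.

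Of 18 other genes of complexins and vesicle fusion, 13 were tested at P0 in the Figla set, at a median log2 fold change of 0.32. Cplx2, the complexin with the most counts, stood at 2717 and 3204 counts in P0 controls and knockouts and was not called, and Cplx1 stood at 6 and 18. For the Lhx8 knockouts 0 of 13 were called, at a median log2 fold change of 0.15. All 4 cargo lectins related to Lman1l, Lman1 among them, were tested and 0 were called in any of the 3 comparisons. Of 10 ABCC transporters 9 were tested at P0 in the Figla set, where Abcc5 rose by 0.60 (edgeR adjusted p = 0.00799) and Abcc1 fell by 0.47 (adjusted p = 0.00684). Abcc4 fell by 1.75 in the Lhx8 set (edgeR adjusted p = 0.0216).

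Since Sox3 also marks spermatogonial progenitors and Abcc12 is known from testis, 14 spermatogonial genes were examined. At P0 in the Figla set 10 were tested, of which Ret (log2 fold change 1.24, edgeR adjusted p = 0.0103) and Dusp6 (0.61, adjusted p = 0.0461) rose and Lin28a fell by 3.17 (adjusted p = 0.00176). In the Lhx8 set 0 of 9 were called. At E18.5 none of these 7 lists, and none of the marker lists, had a gene called.

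Marker lists of other cells moved with the groups as follows. At P0 in the Figla set, 11 of 12 oocyte markers fell, Figla itself among them, beside 10.9% of all genes called lower. The summed level of the 12 was 1612 to 2459 CPM in controls and 473 to 579 CPM in knockouts, with Zp1, Zp2 and Zp3 at 0 in knockouts. Rises were found for 6 of 8 stromal, 4 of 6 endothelial, 3 of 10 pregranulosa and 1 of 6 macrophage markers, beside 5.12% of all genes. The pregranulosa sum was 1276 to 1687 CPM in controls and 1997 to 2152 CPM in knockouts. The summed level of 10 markers of peripheral neurons and chromaffin cells was lower in knockouts, at 9.55 to 14.8 CPM against 39.6 to 80.5 CPM. Most of this sum in controls was Th, the enzyme of catecholamine synthesis, with 1630 counts in controls and 4 in knockouts. Th fell by 8.44, Chga fell by 2.89 and Elavl3 rose by 1.29, on the log2 scale. Prph (134 and 155 counts), Elavl4 (40 and 42), Stmn2 (66 and 51) and Tubb3 (63 and 51) changed little, so the sum mainly follows Th. In the Lhx8 set Th had 1960 counts in controls and 7 in knockouts. Of 7 Schwann cell and glial markers 0 were called, at sums of 43.7 to 64.5 and 54.0 to 93.7 CPM, and Sox10, which defines them, had 15 and 19 counts. Of 10 markers of surface epithelium and mesothelium 0 were called, at 990 to 1141 and 1017 to 1406 CPM, and 8 Sertoli markers were at 44.6 to 52.9 and 45.7 to 50.4 CPM with 0 called. In the Lhx8 set 8 of 12 oocyte markers fell, and 3 of 8 Sertoli markers (Sox9, Dmrt1 and Fgf9), 3 of 8 stromal and 2 of 10 pregranulosa markers rose. The part of these cells in the levels of the 7 genes was not tested.

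Within 100 kb of the 7 lay 41 other genes, of which 17 were tested at P0 in the Figla set, 2 were called higher and 3 lower, beside 5.12% higher and 10.9% lower over all genes. Ulk3, 3758 bases from Cplx3, rose by 0.67 on the log2 scale (edgeR adjusted p = 0.0324), and Alpk1, 34678 bases from Neurog2, by 0.69 (adjusted p = 0.0412). Cox5a and Fam219b near Cplx3 fell by 0.68 (adjusted p = 0.00834) and 0.47 (adjusted p = 0.0152), and Larp7 near Neurog2 fell by 0.44 (adjusted p = 0.0265). Csk, 5871 bases from the other end of Lman1l, was at -0.11 (adjusted p = 0.530) and Scamp2 at 0.19 (adjusted p = 0.328). Cplx3 and Lman1l were at 5.77 and 3.75, the values they were picked on. At E18.5, 16 neighbours were tested and 0 were called, with Ulk3 at 0.04 (edgeR adjusted p = 1.00). In the Lhx8 set 15 neighbours were tested, of which 0 rose and 2 fell: Larp7 by 0.72 (edgeR adjusted p = 0.00661) and 3830406C13Rik near Fezf2 by 0.55 (adjusted p = 0.0464).

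**Figure D5:**
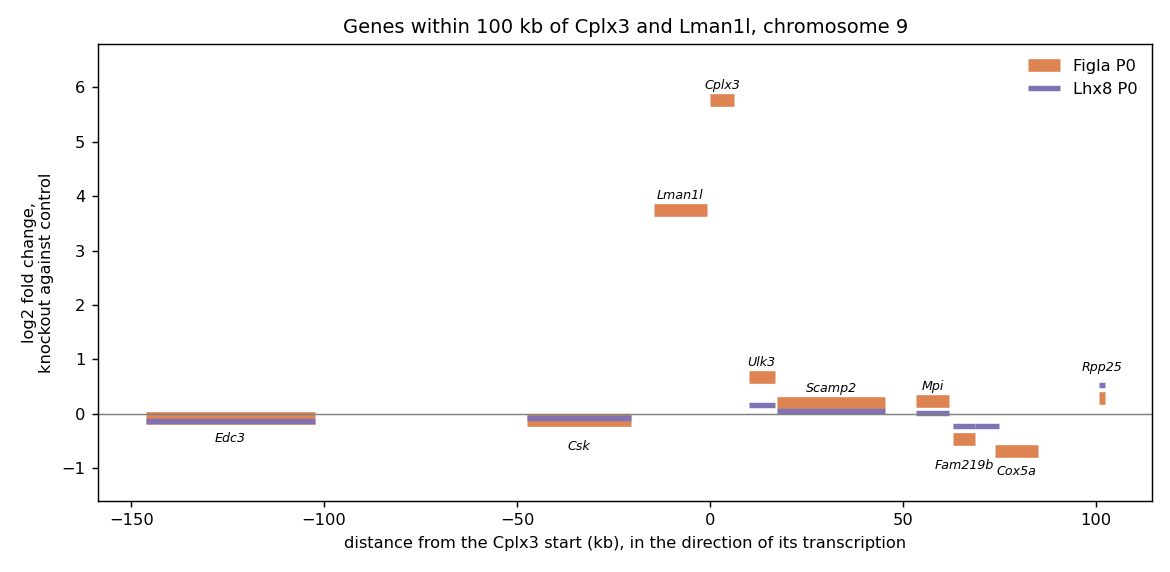
Log2 fold change, knockout against control, of the tested genes within 100 kb of Cplx3 and Lman1l (bars span the gene, plotted by distance in kb from the Cplx3 start; orange, Figla P0; purple, Lhx8 P0). Cplx3 (5.77) and Lman1l (3.75) stand above all other genes of the window, which lie between -0.68 and 0.67 in the Figla set, they have no purple bar because they did not pass the filter in the Lhx8 set, and the unlabelled purple bar beside Fam219b is Gm26631 (-0.22), tested in the Lhx8 set only.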

How the data were processed

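The data are gene expression values from 20 ovary libraries. Poly(A) RNA of the Figla ovaries was made into double-stranded cDNA and Nextera libraries, and the Lhx8 libraries were QuantSeq 3' FWD, per the labels' protocols. The submitters' processing notes name cutadapt, HISAT2 and the build GRCm38.p5, with tool versions not given in the sources used here. The authors deposited raw counts per gene, written by featureCounts 1.6.0 without regard to strand over GENCODE M12 genes, per the file headers. IDs matched a symbol for 49326 of 49585 genes.

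Genes passing filterByExpr (minimum count 10, total 15) were scaled by TMM and tested with the edgeR 4.0.16 quasi-likelihood test in R 4.3.3, Benjamini-Hochberg adjusted over all genes tested, at a threshold of 0.05. The fit was tested on simulated data. Each knockout was compared with its own controls, and the kits shared no model. Counting intervals are 95% exact binomial intervals of summed counts, which cover counting error only, and a count of 0 allows 3. The labels do not say whether samples came from separate animals, so p-values measure the spread between samples, which may be technical. Likeness used log2 CPM computed from the deposited counts.

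The 7 genes, the lists and the tests were chosen with earlier results of these data known. Genes named beside the 7 are the most like genes, those within their P0 limits, called neighbours within 100 kb, the neighbours flanking Cplx3 and Lman1l, called list genes and close relatives. DESeq2 1.42.0, other scalings and filters, left-out samples and a replicate block were alternatives. Some single genes of the lists are not reported here.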

Additional observations from a re-analysis of the deposited data

How the results depend on the processing

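The E18.5 fold changes of Tbx18 and Sox3 and the Lhx8 fold changes of Sox3 and Fezf2 kept their direction under every alternative run. So did the P0 Figla fold changes of all 7 genes, but that comparison picked the genes, so nothing is read from this. Without P0 control replicate 3, the only one with Fezf2 counts, the log2 fold change of Fezf2 was 9.24, and without control replicate 1 that of Cplx3 was 8.39, for the same reason; those values depend on the prior count. The number of genes called at E18.5, 1 as reported, was 229 with no filter (63 higher, 166 lower), 78 with DESeq2, 34 with each library as its own sample, 18 without both samples numbered 3, 53 in 1 model of all Figla samples, and 0 to 89 with 1 sample left out, the 89 without control replicate 3. At P0 it was 2767 as reported, 1835 with the libraries whose labels agree, 1363 in 1 model of all Figla samples and 1423 to 2882 with 1 sample left out. In the Lhx8 set it was 1582 as reported, 2682 with no filter and 630 to 1490 with 1 sample left out. The replicate block in the Lhx8 set gave 931 calls and left Sox3 called, at 3.11 (edgeR adjusted p = 0.00147); same-numbered samples did not deviate together (correlations -0.15, 0.05 and 0.04), so the numbers were not used as pairs. The cause of these shifts was not tested. No paired analysis was possible in the Figla set because the library names used for grouping give no replicate number within a group, and numbers assigned in order of deposit do not pair samples. In libraries of this depth the 5 genes below the filter at E18.5, and the 5 in the Lhx8 set, rest on a few counts per library.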
